A study of Danio rerio with 2 samples.

Results

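Translation initiation factors (eIFs) and elongation factors (eEFs) are the proteins that load the ribosome with messenger RNA and initiator tRNA and then move it along the message. Their transcripts were measured in zebrafish embryos mutant for gnl2, whose product is a GTPase of the nucleolus needed to build large ribosomal subunits. The members were the gene probes whose name, or whose symbol in brackets in the array's description, starts with eif or eef, whatever the letter case. The eif6 and eif4ebp probes were left out, since eIF6 acts on the large ribosomal subunit and the 4E-BPs are repressors. This gave 34 probes for 24 genes, of 21495 gene probes for 17983 genes or named transcripts on the array, and 32 of the 34 were tested. Current RefSeq symbols added 46 probes for 34 genes that the array lists under other names, of which 44 were tested. These are described beside the members and never counted with them unless stated.

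The mutants carried the bw41c allele of gnl2 on both chromosomes and were offspring of heterozygous parents. Wild types were TL zebrafish, which the labels do not call clutch mates of the mutants. Both were whole embryos at 22 hours post-fertilization, and each RNA extract came from 40 of them. Each of 2 arrays received RNA of both genotypes, with the mutant's in Cy5 (red) on array 1 and in Cy3 (green) on array 2. Array, replicate and dye orientation therefore cannot be told apart. The series text calls the arrays biological replicates, but their titles carry the same number, so the p-values may measure technical spread alone.

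In eukaryotes, eIF2 with GTP carries the initiator tRNA to the small ribosomal subunit, and eIF2B recharges eIF2 with GTP. The large eIF3 complex, with eIF1 and eIF1A, holds the small subunit ready for scanning, while eIF4E binds the mRNA cap and the helicase eIF4A unwinds the leader. During elongation eEF1A delivers each aminoacyl-tRNA, the eEF1B complex recharges eEF1A, and eEF2 drives translocation. The elongation factor mRNAs are among the most abundant in growing cells, and in vertebrates many of them carry a 5' pyrimidine tract that ties their translation to growth signalling.

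The probe for gnl2 itself had mean signals of 4706 and 342 in mutants and 3900 and 2606 in wild types on arrays 1 and 2. Its log2 ratio of mutant over wild type was -0.99 on array 1 and -2.27 on array 2, a mean of -1.63 ± 0.91 (SD, n = 2) with a limma adjusted p of 1.00. The RNA was thus lower in mutants on both arrays, at 0.323 of the wild-type level. Where the probe lies relative to the mutation was not analysed here, so this checks the labels only in part. Median signals of gene probes were 482 and 204 in mutants and 243 and 305 in wild types on arrays 1 and 2. Between 92.7% and 96.4% of gene probes were well above background in a channel, and all 20 of the 26 muscle, blood, neural, eye, notochord, skin, vessel and yolk marker genes that the array holds were well above background. No yolk marker was on the array. Ratios of the arrays correlated at r = -0.149 across the 19284 probes tested, which are not independent replicates. In whole embryos, fewer cells of a type and less RNA per cell cannot be told apart.

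No translation factor transcript passed the test. None of the 32 members had a limma adjusted p under 0.05 (Benjamini-Hochberg over 19284 probes), and neither did any probe on the array, a background of 0.0%. At an unadjusted p under 0.05 there were again 0 members, where 3.28% of all probes tested fell below that value, and the scanner software's own error model (p under 0.01 and the same direction on both arrays) called 0 as well, where it called 0.508% of all probes higher and 0.181% lower. The median member ratio was 0.03 on the log2 scale, beside 0.002 for all probes tested, and the means ran from -0.50 to 0.31. No member mean reached a 2-fold difference in either direction. The median 95% confidence interval reached 0.40 on each side of the mean, beside 0.27 for all probes tested. For 23 of the 32 members the interval lay within a 2-fold difference, against 18581 of all 19284 probes tested. However, 7 of the 32 had a spot at the scanner's ceiling (saturated), so their means and intervals do not bound the change in RNA. Over the other 25 members the means ran from -0.48 to 0.31, and 20 intervals lay within a 2-fold difference. Differences smaller than these intervals were not detectable with 2 arrays. Larger ones could be missed as well, since the smallest limma adjusted p of any probe on the array was 0.498.

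Members more often went opposite ways on the arrays than together. Mutants were higher on both arrays at 7 members (21.9%, against 21.4% of all probes tested) and lower on both at 2 (6.25%, against 20.0%). The other 23 members (71.9%, against 58.6%) had opposite signs. Of these, 18 were lower in mutants on array 1 and higher on array 2 (56.2%, against 27.5%), and 5 were the reverse (15.6%, against 31.1%). In terms of dye, the 18 were relatively green on both arrays. The median ratio was -0.11 on array 1 and 0.16 on array 2. That split depended on the dye correction. When the arrays were only centred on their medians, in place of an intensity-dependent curve, 9 of 32 members (28.1%) showed it beside 32.7% of all probes tested, and the medians were 0.11 and -0.01. The mean over both arrays, in which an equal dye effect cancels, had a median of 0.06 under that centring. All per-array directions below are from the intensity-dependent curve.

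**Figure D1:**
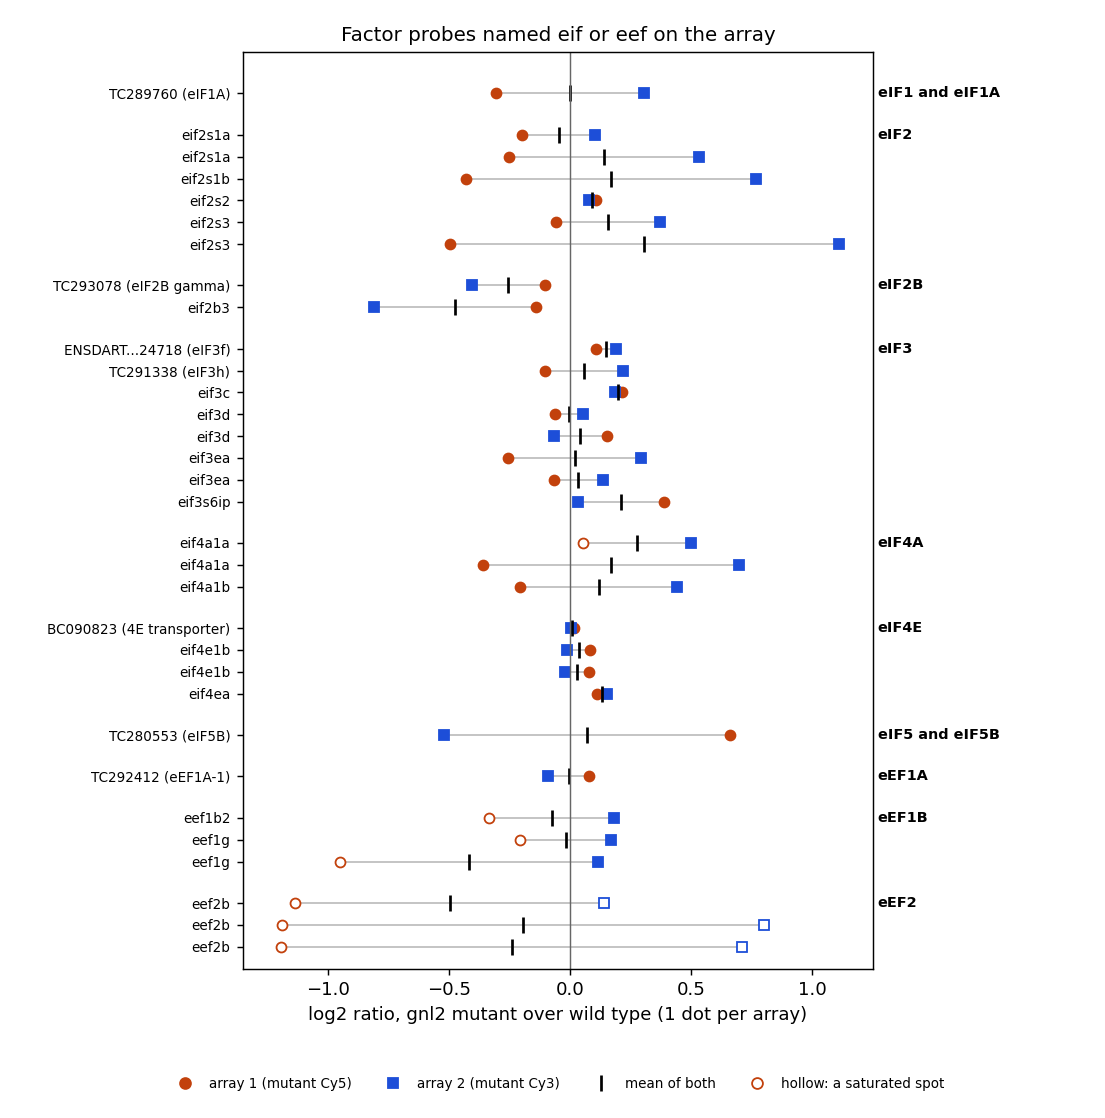
Log2 ratio of gnl2 mutant over wild type at the 32 members tested, 1 row per probe, grouped by complex. Circles are array 1, squares array 2, ticks the mean, and hollow marks have a saturated spot in either channel. The eIF2 and eIF4A squares lie right of their circles except at eif2s2, both eIF2B probes lie left of 0, and the eEF1B and eEF2 circles are all hollow.

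Among the scanning factors, eIF1 and eIF1A guard the choice of start codon. The only member, TC289760, described by the array as like human eIF1A, had mean signals of 5221 and 1047 in mutants and 2716 and 1470 in wild types on arrays 1 and 2. Its ratios were -0.31 and 0.30, and its mean was -0.002 ± 0.43. Current symbols added 5 tested probes. The largest mean was that of eif1b, a close relative of eif1, with ratios of -0.35 and 1.02 and a mean of 0.33 ± 0.97. Before dye correction eif1b had signals of 6636 and 2448 in mutants, against 3554 and 2129 in wild types. Over all gene probes the median signal was also higher in mutants on array 1 (482 against 243), and lower on array 2 (204 against 305). The raw eif1b signal on array 1 alone therefore does not show more RNA in mutants. For eif1 the ratios were -0.20 and 0.72, for eif1axa -0.17 and 0.61, and for eif1ad, named for an eIF1A domain, -0.21 and 0.59. The exception was eif1axb, at -0.01 and -0.10. Of the 6 probes 5 were lower on array 1 and higher on array 2 (83.3%, against 27.5% of all probes tested). None was higher on both (against 21.4%). With median centring 2 of the 6 were split that way (33.3%, against 32.7%). There 3 were higher in mutants on both arrays, against 2796 of all 19284 probes tested. The median of the means was 0.25 under that centring and 0.21 otherwise.

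The 3 subunits of eIF2, the carrier of the initiator tRNA, were covered by 6 members. Mutants were higher on array 2 at all 6, and lower on array 1 at 5. Of all 19284 probes tested, 9423 were higher on array 2, and 27.5% were also lower on array 1. At eif2s3, the gamma subunit that binds GTP and tRNA, the dimmer probe had 961 and 314 in mutants and 599 and 247 in wild types, and its ratios were -0.49 and 1.11 (mean 0.31 ± 1.13, unadjusted p 0.527). The brighter eif2s3 probe gave -0.06 and 0.37. The gene eif2s1b, for an alpha subunit that carries the site phosphorylated under stress, had 3250 and 1044 in mutants and 1847 and 1069 in wild types, with ratios of -0.43 and 0.77 and a mean of 0.17 ± 0.85. The eif2s1a probes gave -0.25 and 0.53, and -0.20 and 0.10. Only eif2s2, the beta subunit, kept one sign, at 0.11 and 0.08 (mean 0.09 ± 0.02), from signals of 49011 and 14473 in mutants and 19670 and 24058 in wild types. The eIF2 median was -0.23 on array 1, 0.45 on array 2 and 0.15 for the means. Under median centring the same 6 had array medians of 0.05 and 0.25 and a median mean of 0.18. There 2 of the 6 were split as above (33.3%, against 32.7% of all probes tested).

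The exchange factor eIF2B supplied the 2 members that were lower in mutants on both arrays. Both are annotated as its gamma subunit, which with the epsilon subunit forms the catalytic part. At eif2b3 mean signals were 4187 and 2281 in mutants, against 1949 and 6990 in wild types. The ratios were -0.14 and -0.81, and the mean of -0.48 ± 0.47 had a 95% interval of -1.06 to 0.10 and an unadjusted limma p of 0.0824, the smallest among members. TC293078, described as like the rat gamma subunit, had 2572 and 972 in mutants and 1178 and 2209 in wild types. It gave -0.11 and -0.40, a mean of -0.25 ± 0.21 with an unadjusted p of 0.101. The equal signs depended on the dye curve, since with median centring neither probe was lower on both arrays (medians 0.15 and -0.81), though the means stayed at -0.44 and -0.22. Whether these probes read the same transcript was not analysed here. Probes of the other subunits had means nearer 0. The alpha subunit gene eif2b1 had probe means of 0.08 and 0.07, the beta subunit gene eif2b2 0.006 and the delta subunit gene eif2b4 -0.02. A probe described as the epsilon subunit by the array, without a bracketed symbol, had -0.01, and another described as a delta subunit had -0.04.

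For eIF3, which bridges the small subunit and the cap complex, 10 members were on the array and 8 were tested. One eif3c probe and the probe described as human eIF3b carried outlier flags and were left out. The 8 means lay between -0.005 and 0.21, with a median of 0.05. Of the 8, 3 were higher in mutants on both arrays and 0 lower, against 21.4% and 20.0% of all probes tested. At eif3c, a core subunit, the tested probe had 50264 and 11772 in mutants, against 18712 and 18179 in wild types. Its ratios were 0.21 and 0.18, and the mean of 0.20 ± 0.02 had a 95% interval of -0.05 to 0.44 and an unadjusted p of 0.0838. The probe named eif3s6ip, for the subunit 6 interacting protein, gave 0.39 and 0.03 (mean 0.21 ± 0.25), and the probe described as human eIF3f gave 0.11 and 0.19 (mean 0.15 ± 0.06). The eif3d probes (means -0.005 and 0.04), the eif3ea probes (0.02 and 0.03) and the probe described as eIF3h (0.06) changed sign between the arrays.

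Adding the eIF3 probes found by current symbol gave 13 tested. Of these, 6 were higher on both arrays, 1 lower and 6 opposite (all probes tested: 21.4%, 20.0% and 58.6%). Their median was 0.06. All 13 intervals lay within a 2-fold difference, beside 18581 of all 19284 probes tested. The loosely bound subunit gene eif3jb had 1996 and 475 in mutants and 706 and 710 in wild types, with ratios of 0.30 and 0.17 and a mean of 0.24 ± 0.10 (unadjusted p 0.0682). The eif3ha probes had means of 0.15 and 0.04, and eif3i had 0.11. Only eif3s10, the older name of the large eIF3a subunit, was lower on both, at -0.17 and -0.08 (mean -0.13 ± 0.06). Under median centring 1 of the 13 was higher on both arrays, against 2796 of all 19284 probes tested. The array medians were 0.39 and -0.14 there, while the median of the means was 0.11.

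At the cap, eIF4E binds the mRNA's 5' end, eIF4G is the scaffold, and eIF4A is the helicase. Members and probes found by current symbol together gave 7 tested probes in the eIF4E group, with means between -0.14 and 0.17. The 4 members among them, which include the 4E transporter, had means between 0.008 and 0.13. For eif4ea mean signals were 2291 and 513 in mutants and 914 and 776 in wild types, with ratios of 0.11 and 0.15 and a mean of 0.13 ± 0.03 (95% interval -0.11 to 0.38). Both eif4e1b probes had means of 0.03, and BC090823, described as the 4E transporter that carries eIF4E into the nucleus, had 0.008. By current symbol, the eif4eb probes averaged 0.17 and 0.09 and were higher in mutants on both arrays, and eif4e3 averaged -0.14 ± 0.17 and was lower on both. Under median centring 1 of the 7 eIF4E probes was higher on both arrays, an eif4eb probe, and 0 were lower on both, against 4 and 1 otherwise. Of all 19284 probes tested, 2796 were higher and 2630 lower on both under that centring, against 4121 and 3862 otherwise. Among scaffolds related to eIF4G, which act in cap-independent translation, eif4g2a had a mean of 0.02 and eif4g2b of 0.14 and -0.02. The eif4g2b probe at 0.14 was dim, and its mean was 0.35 with no normexp offset, 0.39 with the processed signals and 0.05 with median centring. The helicase cofactor gene eif4bb had 0.34 and -0.26 on arrays 1 and 2 and a mean of 0.04.

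Of the 3 eIF4A members, 2 were lower in mutants on array 1 and higher on array 2. With the probes found by current symbol 4 of 7 were split so (57.1%, against 27.5% of all probes tested). On both arrays 2 of the 7 were higher (against 21.4%). Under median centring 2 of 7 were split (28.6%, against 32.7%). There 3 were higher on both, against 2796 of all 19284 probes tested. The brighter eif4a1a probe was saturated in mutants on array 1, with signals of 65020 and 28321 in mutants and 27171 and 34995 in wild types. Its ratio of 0.05 on array 1 is a lower limit, and that on array 2 was 0.50. The mean of 0.28 ± 0.32 (unadjusted p 0.139) is then a lower limit too. The dimmer eif4a1a probe gave -0.36 and 0.70, and eif4a1b gave -0.21 and 0.44. By current symbol, the dimmer eif4a2 probe had a mean of 0.43 ± 0.46, the highest among the factor probes as processed here, from ratios of 0.11 and 0.75 and signals of 527 and 248 in mutants, against 247 and 237 in wild types. Its 95% interval was -0.13 to 0.99 and its unadjusted p 0.0976. The brighter eif4a2 probe had -0.40 and 0.33, a mean of -0.03. A further eif4a1a probe, dimmer still at 178 and 118 in mutants and 122 and 161 in wild types, averaged -0.11, and eif4a3, the helicase of the exon junction complex, had -0.02.

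At subunit joining, the member TC280553, described as like human eIF5B, had opposite and large ratios. Its mean signals were 25095 and 5466 in mutants and 6766 and 13782 in wild types, the ratios were 0.66 and -0.52, and the mean was 0.07 ± 0.84 (95% interval -0.90 to 1.03). On both arrays the ratio favoured the Cy5 sample, the reverse of the split at eIF2. The GTPase activator gene eif5 was near 0 by comparison, at 0.12 and 0.02.

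The 44 tested probes found by current symbol had a median mean of 0.04. Of these, 15 were higher in mutants on both arrays (34.1%, against 21.4% of all probes tested). Lower on both were 7 (15.9%, against 20.0%), and 22 (50%, against 58.6%) had opposite signs. The 44 include 5 probes of factor-modifying enzymes and 1 of an eIF2 alpha kinase. Their directions as a set under median centring are not given. None of the 44 passed the adjusted threshold. Unadjusted p-values under 0.05 occurred at 2 of 44 (4.55%), both higher in mutants, where 2.03% of all probes tested were higher and 1.24% lower at that value. The first was eif2d, whose product can place tRNA on the ribosome without eIF2. It had 1456 and 342 in mutants, against 545 and 467 in wild types, ratios of 0.25 and 0.26, and a mean of 0.26 ± 0.006 (95% interval 0.01 to 0.50, unadjusted p 0.0432, adjusted p 1.00). The second was eif5a, the hypusine-bearing factor that helps the ribosome through difficult peptide bonds. It had 10081 and 3317 in mutants and 3657 and 4787 in wild types, ratios of 0.22 and 0.29, and a mean of 0.25 ± 0.05 (95% interval 0.002 to 0.50, unadjusted p 0.0491, adjusted p 1.00). Neither stayed under 0.05 unadjusted with no normexp offset, the processed signals or median centring, where p was 0.078 to 0.275 for eif2d and 0.112 to 0.297 for eif5a, at means of 0.24 to 0.30. The p-values under median centring follow the mean alone and do not measure the spread between arrays. The paralogue eif5a2 had means of -0.009 and 0.03 at its probes, of which the brighter was saturated in mutants on array 1. The eIF2 alpha kinase gene eif2ak1 gave 0.05 and -0.16, and eif2ak3, the kinase of endoplasmic reticulum stress, was not found among the array's names. The enzymes that act on the factors lay close to 0. The eef2k probes, for the kinase that inactivates eEF2, had means of 0.09, 0.02 and -0.10, and the methyltransferase genes eef1akmt1 and eef2kmt had 0.07 and 0.008.

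**Figure D2:**
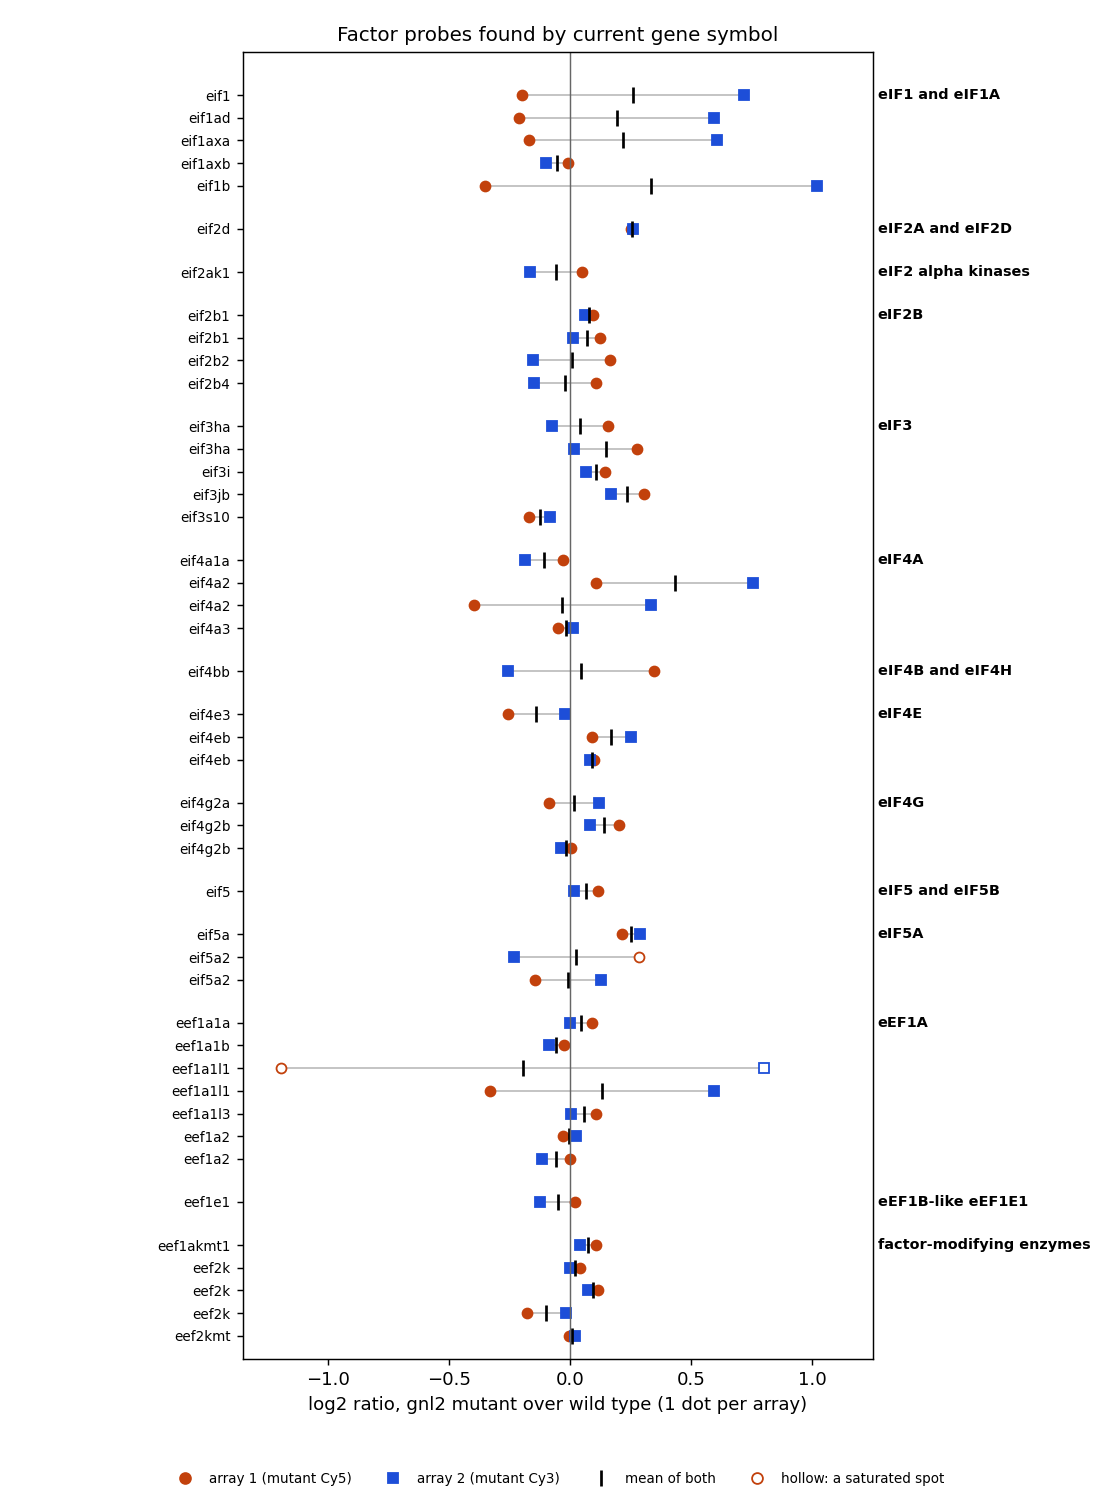
Log2 ratio of gnl2 mutant over wild type at the 44 tested probes whose current symbol starts with eif or eef, drawn as in the plot of the members. The eIF1 probes other than eif1axb repeat the split between arrays, eif2d and eif5a have both marks right of 0, and the saturated eef1a1l1 probe lies at -1.19 and 0.80.

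Most members whose signal reached the scanner's ceiling were elongation factors. At least 1 saturated spot was found at 7 of the 32 members tested (21.9%, against 0.897% of all probes tested), and 6 of these 7 were eEF1B or eEF2 probes. Member spots were saturated 7 times in mutants on array 1 and 1 time in mutants on array 2, against 2 and 3 times in wild types. By dye, 10 saturated member spots were red and 3 green. Over all gene probes the counts were 185 and 22 in mutants and 34 and 100 in wild types on arrays 1 and 2. A saturated spot gives only a lower limit for its channel. A mutant spot at the ceiling on array 1 therefore pulls that array's ratio down, and a wild-type spot at the ceiling on array 2 pulls that array's ratio up.

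For eEF2, the translocase, all 3 eef2b probes were saturated in part. One was at the ceiling in every channel, at 65269 and 65248 in mutants and 65243 and 65278 in wild types. Its ratios of -1.19 and 0.80 are those that the dye curve gives to a pair of equal ceiling signals, and the eef1a1l1 probe that was likewise saturated in every channel had the same -1.19 and 0.80. The next eef2b probe had 65269 and 61320 in mutants and 65243 and 65278 in wild types, so wild type was saturated on both arrays and mutant on array 1. No fold is given for these. At the last eef2b probe mutant RNA reached the ceiling on array 1 only (65269, and 41217 on array 2) and wild-type RNA on array 2 only (62663 on array 1, and 65279). Its ratio of -1.13 on array 1 is then too low by an unknown amount, and that of 0.14 on array 2 too high. The mean of -0.50 ± 0.90, the lowest of any member, is thus not a measure of eef2b RNA. A probe described as an eEF2-like transcript, without a symbol, had 61319 in mutants on array 2 and was saturated in the other 3 channels, and another described as eEF2 had a mean of 0.004 from signals of 601 and 254 in mutants and 294 and 394 in wild types.

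The eEF1B complex recharges eEF1A with GTP. Its members were saturated in mutants on array 1 and in no other channel. At eef1g, the gamma subunit, the brighter probe had 65269 and 33300 in mutants, against 55025 and 53700 in wild types, with ratios of -0.95 and 0.11 (mean -0.42 ± 0.75). The dimmer eef1g probe had 65032 and 22150 in mutants, against 32658 and 34441 in wild types, with ratios of -0.21 and 0.17 (mean -0.02 ± 0.27). Both array 1 ratios are lower limits. The beta subunit gene eef1b2 gave -0.34 and 0.18 (mean -0.08 ± 0.37). On array 2, where none of these spots was saturated, mutant over wild type was between 0.11 and 0.18 at all 3 probes, a single array with no replicate. Values this small depend on the dye correction, since the array 2 median of all members was 0.16 here and -0.01 with median centring. The eEF1B ratios under that centring are not given. Probes described as eEF1B subunits without a symbol were unsaturated, and had means of 0.20, 0.17 and -0.12. The gene eef1e1, for an eEF1-related subunit of the synthetase complex, had 0.02 and -0.12.

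For eEF1A the only member, TC292412, described as like eEF1A-1, was dim, at 240 and 127 in mutants and 142 and 169 in wild types, and had a mean of -0.006 ± 0.12. The main embryonic gene eef1a1l1 was found by current symbol. Its unsaturated probe had 29892 and 4851 in mutants and 16114 and 5682 in wild types, with ratios of -0.33 and 0.59 and a mean of 0.13 ± 0.65 (95% interval -0.63 to 0.90). This eef1a1l1 probe, with no spot at the ceiling, was split between the arrays under the intensity-dependent curve. The member and the probes found by current symbol gave 8 tested eEF1A probes. Under that curve 3 of the 8 were lower in mutants on array 1 and higher on array 2 (37.5%, against 27.5% of all probes tested). Median centring gave 6 of 8 (75%, against 32.7% of all probes tested). The 8 include the eef1a1l1 probe that was saturated in every channel. By current symbol, the eEF1A genes other than eef1a1l1 had dimmer probes. The eef1a1a probe had a mean of 0.04, eef1a1b of -0.06 and eef1a1l3 of 0.06, and the eef1a2 probes had -0.003 and -0.06. Of 5 probes described as eEF1A without a symbol, 1 was brighter than the unsaturated eef1a1l1 probe, at 43829 and 9198 in mutants and 21290 and 11808 in wild types. It had ratios of -0.17 and 0.45 and a mean of 0.14 ± 0.44, and the other means lay between -0.08 and 0.002.

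**Figure D3:**
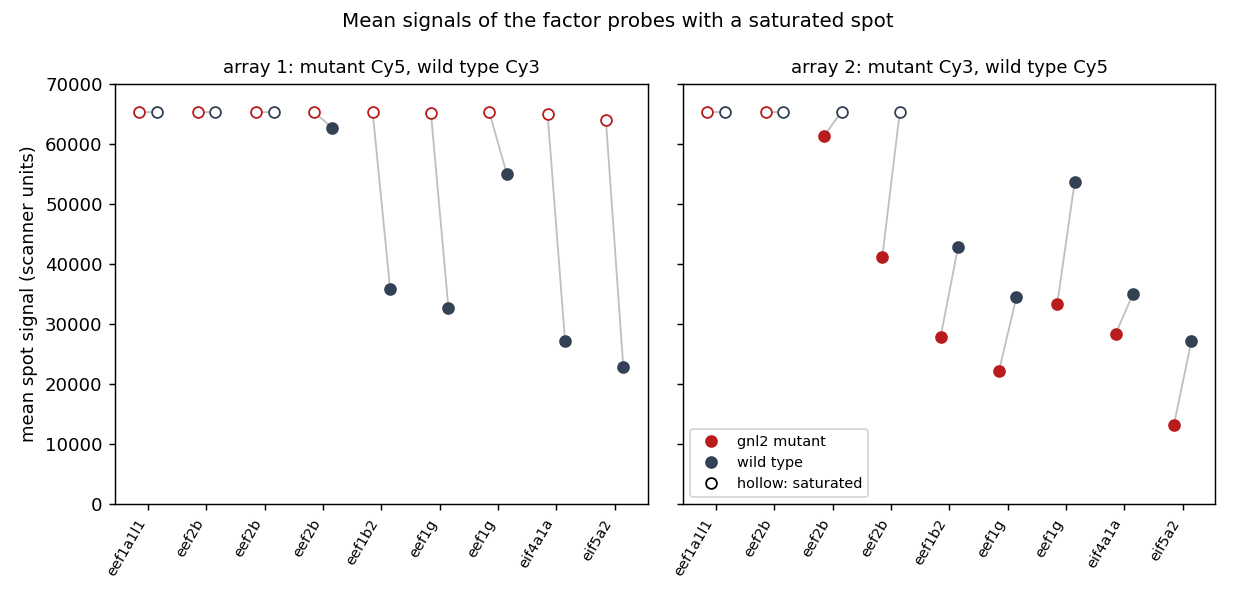
Mean spot signal in scanner units at the 9 factor probes with a saturated spot, gnl2 mutant left and wild type right at each probe, array 1 in the left panel and array 2 in the right. Hollow marks are saturated. On array 1 all 9 mutant marks are hollow and 3 wild-type marks are, and on array 2 the counts are 2 and 4.

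Under the intensity-dependent curve, the split between arrays was also counted without the saturated probes. With median centring 9 of all 32 members were split so, and the unsaturated members were not counted separately there. The cause of the split was not tested. Over the 25 members with no saturated spot, the medians were -0.06 on array 1, 0.13 on array 2 and 0.06 for the means. Mutants were higher on both arrays at 6 of the 25 and lower on both at 2. Of all 19111 probes without a saturated spot, 4110 were higher and 3811 lower on both. Of the 25, 12 were lower on array 1 and higher on array 2 (48.0%, against 27.2% of all probes without a saturated spot). The 7 members with a saturated spot had medians of -0.95 and 0.18, and a median mean of -0.20. Mutants were higher on both arrays at 1 of the 7 and lower on both at 0. Among the 17 factor genes with more than 1 tested probe, the means of a gene's probes had a median gap of 0.15. The widest gaps were 0.46 at eif4a2, 0.40 at eef1g, 0.39 at eif4a1a and 0.33 at eef1a1l1, the last 3 of which include a probe with a saturated spot. The median SD between arrays was 0.29 for all 32 members, 0.21 for the 25 with no saturated spot, and 0.11 for all probes tested.

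**Figure D4:**
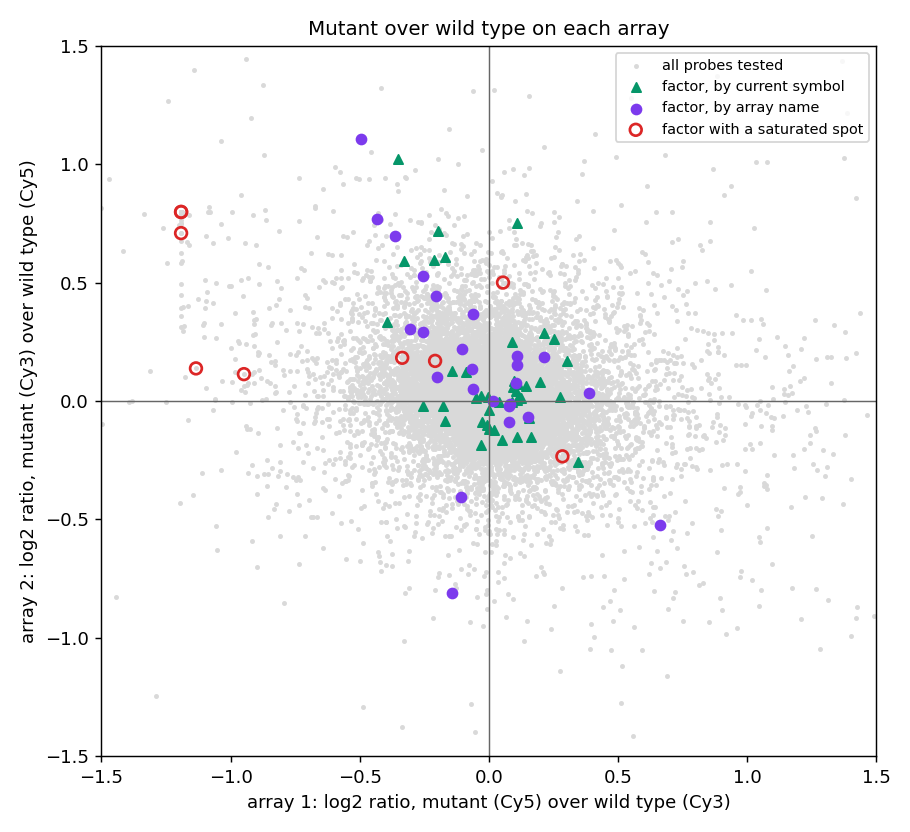
Log2 ratio of gnl2 mutant over wild type on array 1 (horizontal) against array 2 (vertical), 1 point per probe. All probes tested are grey (70 lie outside the axes, which end at 1.5), members are filled circles, probes found by current symbol are triangles, and open circles have a saturated spot. Factor points extend up and left, where mutants are lower on array 1 and higher on array 2, and the saturated probes reach -1.19.

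Besides these, 17 probes were described by the array as cytosolic translation factors in words only. They were picked out after values had been seen, and had a median mean of -0.001. Mutants were higher on both arrays at 3 and lower on both at 1, and 13 were opposite. Over all probes tested these shares were 21.4%, 20.0% and 58.6%.

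Genes that work with the factors were also described as a list of synthetases, modifying enzymes, cap and poly(A) partners and termination factors, with 44 probes for 29 genes and 40 tested. None had an adjusted p under 0.05. At an unadjusted p under 0.05, 3 of the 40 were higher in mutants and 0 lower, where 2.03% of all probes tested were higher and 1.24% lower. Only 1 of the 40, the tars1 probe below, remained at that value with no normexp offset, with the processed signals or with median centring. The median mean was 0.03, with 13 higher on both arrays, 9 lower on both and 18 opposite. Of all probes tested, 21.4% were higher on both arrays, 20.0% lower on both and 58.6% opposite. Of 19 tested probes for cytosolic aminoacyl-tRNA synthetases, which charge the tRNAs, 4 were higher on both arrays and 3 lower. A tars1 probe, for threonyl-tRNA synthetase, had the highest mean of the list, 0.62 ± 0.21, from ratios of 0.77 and 0.46 (unadjusted p 0.0087). The remaining tested tars1 probes had means of 0.05 and -0.05. Of 4 probes for the enzymes that make hypusine on eIF5A and diphthamide on eEF2, 2 were higher in mutants on both arrays. The other 2 had opposite signs, dohh at 0.31 and -0.03 and the lower dph5 probe at -0.02 and 0.11. Those shares over all probes tested were 21.4% and 58.6%. For dhps, the first hypusine enzyme, ratios were 0.18 and 0.22 (mean 0.20 ± 0.03), and for dph5 the higher probe had 0.54 and 0.21 (mean 0.38 ± 0.23, unadjusted p 0.0425). Among 14 initiation partner probes, 6 were higher on both arrays and 5 lower. One ddx3xb probe, for an RNA helicase, had 0.30 and 0.26 (mean 0.28 ± 0.03, unadjusted p 0.0349), beside 0.14 and -0.10 at its other probes. Both pdcd4b probes, for a protein that holds eIF4A inactive, were lower in mutants on both arrays, at -0.93 and -0.12, and at -0.63 and -0.07. Of the 3 tested termination and recycling probes, hbs1l had the highest mean, at 0.19 ± 0.24.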

How the data were processed

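Total RNA of gnl2 mutant and wild-type embryos was compared on 2 two-colour arrays with 22575 spots, 1080 of them controls. The spot intensity values deposited by the authors are mean signals with median local backgrounds from Agilent Feature Extraction, per the file headers. The deposited log10 ratio is of red over green processed signal after LOWESS dye normalization (smoothing 0.25), per the file headers. The p-value column, as deposited, is an error model of that software for a single array. A value table also deposited by the authors holds these log10 ratios without turning the swapped array.

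Signals were corrected with normexp (offset 50) and normalized by loess (span 0.3), for which controls and outlier spots had weight 0. limma 3.58.1 and R 4.3.3 were used. Array 2 was turned so that ratios are log2 mutant over wild type. Outlier flags removed 749 probes and dimness 1462, and saturated spots were kept. limma's moderated test (lmFit, eBayes) of each mean was 2-sided, with Benjamini-Hochberg adjustment over 19284 probes, 1 residual and 3.49 total degrees of freedom. That total is for the loess fit above. Where arrays were only centred on their medians, p followed from a probe's mean alone and not from its own spread. Each probe was tested separately, and the fit was tested on simulated data. Those data had no dye bias and larger changes than the member means, so they do not check the dye correction. Ratios are on the log2 scale and signals are before dye correction.

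Names came from RefSeq tables of GRCz12tu. Of the members 25 were named by accession, 1 by symbol, and 8 kept the file's name, and of the further probes 36 were named by accession and 10 by synonym. Members and lists were chosen with earlier results of these data known. Values are given for probes under an unadjusted p of 0.05, up to 8 unsaturated probes per direction with equal signs on both arrays, the largest mean per complex, probes with 1 genotype saturated on both arrays, and eef1a1l1, eef2b, eif5a, eif2s1b, eif4ea and eIF3 subunits. The others are given to complete each complex. No sequence or coordinate was used here.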

Additional observations from a re-analysis of the deposited data

How the results depend on the processing

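The median member ratio stayed between 0.03 and 0.06 under each other background correction, dye normalization and filter, and taking each array alone it ran from -0.11 to 0.16. The partner genes' median ran from -0.02 to 0.08 and the red over green median from -0.16 to -0.11 by array, where the value over both arrays was -0.16. The red over green median was 0.02 under median centring instead of loess, -0.041 without saturated probes or with 1 probe per gene, and -0.016 with the further probes added. The number of members lower on array 1 and higher on array 2 was 18 of 32, but 9 of 32 with median centring, 10 of 23 with 1 probe per gene (43.5%), and 30 of 76 with the further probes added (39.5%). Choices made after seeing the data were that addition and the use of symbols in lower case only. The addition gave 22 of 76 higher and 9 lower on both arrays, against 21.4% and 20.0% of all probes tested. Lower-case symbols gave 1 lower on both. Of the settings in which named probes were compared, only 3 can move a probe's own mean (no normexp offset, processed signals, median centring). Under these, 118 of 123 values of the 41 named probes kept their direction. The deposited ratios also move the means, but named probes were not compared under them. Those that reversed were near 0, namely BC090823 at -0.032 with the processed signals and -0.056 with median centring, TC292412 at 0.025 with the processed signals, and, with median centring, TC289760 at 0.042 and an eef1a2 probe at 0.0087. The cause was not tested. With the scanner software's error model 1 partner probe (tars1) was called. The gnl2 ratio ran from -2.27 to -0.99 by array, and with median centring it was -1.58 and passed the adjusted threshold. Under that centring the p-values of the probes checked followed from the mean alone, whatever the gap between a probe's arrays. They therefore do not measure the spread between replicates. The test cannot be run on 1 array, which leaves no residual degrees of freedom. The within-array ratio already pairs mutant with wild type, so every test here used that pairing, and no further pairing of arrays exists. The p-values rest on 2 arrays.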

Other observations

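The repressors of eIF4E and the factor eif6, both left out by the rule, were measured as well. All 3 probes of eif4ebp1, which blocks eIF4E from binding eIF4G, were higher in mutants on both arrays, with ratios of 0.51 and 0.83, of 0.67 and 0.49, and of 0.58 and 0.36. The means were 0.67 ± 0.23, 0.58 ± 0.12 and 0.47 ± 0.16, with unadjusted limma p-values of 0.0073, 0.0057 and 0.0132 and adjusted p-values of 1.00. Of all probes tested, 21.4% were higher on both arrays, and 2.03% were higher at an unadjusted p under 0.05. All 3 stayed under 0.05 with no normexp offset or the processed signals. With median centring the last had an unadjusted limma p of 0.060. The 3 eif4ebp3 probes had means of 0.03, 0.001 and 0.06 and the eif4ebp3l probes 0.01 and -0.004, while the eif4ebp2 probe carried an outlier flag. The eif6 probe, for the factor that keeps the ribosomal subunits apart, gave 0.34 and 0.06, a mean of 0.20 ± 0.20.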
